A study of Mus musculus with 6 samples.

Results

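The 10 genes described here mark the fibroblasts of the meninges and the fibrillar collagen matrix that these cells secrete, and they were read as a check on how much meningeal and connective tissue each cortex library held. They were chosen by gene symbol: the fibrillar collagen chains *Col1a1*, *Col1a2*, *Col3a1* and *Col5a1*, the proteoglycans *Dcn* and *Lum*, the glycoproteins *Fn1* and *Postn*, the transcription factor *Foxc1* and the enzyme gene *Ptgds*. Each symbol matched 1 row, so that 10 features were members, of 59484 in the deposited table and of 23505 with a symbol. All 10 members had a mean of at least 10 normalized counts and were tested together with the other features above this limit, 18970 in all. The samples were polyA+ RNA libraries of cortex from C57BL/6 embryos at embryonic day 18.5, 3 from wild-type (wt) embryos and 3 from *Sam68:Slm2* double-knockout (dKO) embryos, in which the genes of the RNA-binding proteins Sam68 and SLM2 are both targeted. Both knockouts are present in all cells of the embryo, meninges and vessels included, and dKO embryos descend from intercrosses of *Sam68*+/-:*Slm2*-/- mice. All offspring of such crosses are *Slm2*-/-, so that wt embryos came from other matings. Differences between genotypes cannot be told apart from differences between litters or dams. The labels number the libraries but do not say whether each came from a separate embryo, so that *P*-values measure only the spread between these libraries.

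The meninges are the membranes that cover the brain, and their fibroblasts produce most of the interstitial collagen around the cortex, while the neural tissue beneath is poor in fibrillar collagen. Fibrillar collagens are secreted as triple helices, built of chains that repeat a triplet of residues starting with glycine, and small proteoglycans and glycoproteins attach to the fibrils. Meningeal fibroblasts also guide cortical development through secreted signals such as retinoic acid and the chemokine *Cxcl12*, and *Foxc1* is required to form them. The pia, the innermost layer, lies directly on the cortex, and the vessels within the tissue hold further collagen-producing cells.

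The libraries held between 31837922 and 40896541 reads on the listed features, as recovered from the deposited values, and 1 read was worth between 0.877 and 1.16 normalized counts. *Khdrbs1*, which encodes Sam68, had between 7974 and 8436 normalized counts in wt and between 114 and 197 in dKO libraries, and *Khdrbs3*, which encodes SLM2, between 12764 and 15215 in wt and between 6350 and 7060 in dKO. Of the labelled tissue, 10 markers of cortical neurons summed to between 100030 and 145053 normalized counts in every library. The libraries numbered 1 of both genotypes stood apart from the others, with a rank correlation across 13978 features between deviation and exon length of 0.28 in wt and 0.33 in dKO, against -0.24 to -0.13 in the other libraries. The part of this length trend in the values of the long collagen transcripts was not tested, and results are also given without both libraries numbered 1.

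The coding sequences show what sets the collagen members apart from the other members. In *Col1a1*, *Col1a2*, *Col3a1* and *Col5a1*, a codon of the form GGN, which encodes glycine, recurs every 3 codons for 338, 339, 344 and 338 consecutive repeats, which take up 69.8%, 74.1%, 70.5% and 55.2% of the coding sequence. The longest such run in the other 6 members was 5. Among 21713 genes with an annotated coding sequence in GENCODE release M21 (GRCm38), 28 or 0.129% had a run of at least 50, of which 25 are collagen chain genes by symbol and the others are *Colq*, *Marco* and *Sftpd*. The first 90 bases of each run are shown with the GGN codons at the repeat position in capitals; other GGN codons are in lower case. They lie on the plus strand at chr11:94939451-94939939 over 3 coding exons for *Col1a1*, at chr6:4512406-4515516 over 3 for *Col1a2*, at chr1:45323762-45325413 over 2 for *Col3a1* and at chr2:27964080-27965295 over 2 for *Col5a1*, with the introns between them left out.
Col1a1: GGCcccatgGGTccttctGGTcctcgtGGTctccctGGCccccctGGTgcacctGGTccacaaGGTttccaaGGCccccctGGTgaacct
Col1a2: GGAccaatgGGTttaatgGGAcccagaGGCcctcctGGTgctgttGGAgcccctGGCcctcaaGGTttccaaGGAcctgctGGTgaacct
Col3a1: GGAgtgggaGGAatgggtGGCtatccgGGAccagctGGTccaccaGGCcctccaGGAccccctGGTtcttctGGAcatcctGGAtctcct
Col5a1: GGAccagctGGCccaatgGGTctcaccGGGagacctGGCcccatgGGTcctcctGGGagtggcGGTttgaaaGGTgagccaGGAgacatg

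All 10 members had a lower mean in dKO than in wt cortex, but none passed the test. On the scale of log2(normalized count + 1), their log2 fold changes as limma estimated them, ran from -1.59 for *Dcn* to -0.16 for *Postn*, with a median of -0.63, against a median of 0.00 over all features tested. At an adjusted *P*-value under 0.05 from limma, 0 of 10 members were called, where 0.0474% of all features were called lower and 0.0527% higher in dKO. Unadjusted, *Dcn* and *Ptgds* had a *P*-value under 0.05 from limma, 2 members lower in dKO, where 6.58% of all features were lower at that level. With edgeR and with DESeq2 on the recovered reads, 0 members were called as well, where 16 and 202 of 18970 features were called. *Col1a1*, *Col1a2*, *Col3a1*, *Dcn* and *Ptgds*, 5 members, were lower at an unadjusted *P*-value under 0.05 with each tool. Of all 18970 features, 1255 were lower at that level with edgeR and 1267 with DESeq2. Below 0 lay 10 of 10 fold changes, where 49.4% of all features were below 0. In bulk tissue, fewer cells of a type and less RNA per cell cannot be told apart, and the members share their libraries, so that they are not replicates of the comparison.

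**Figure D1:**
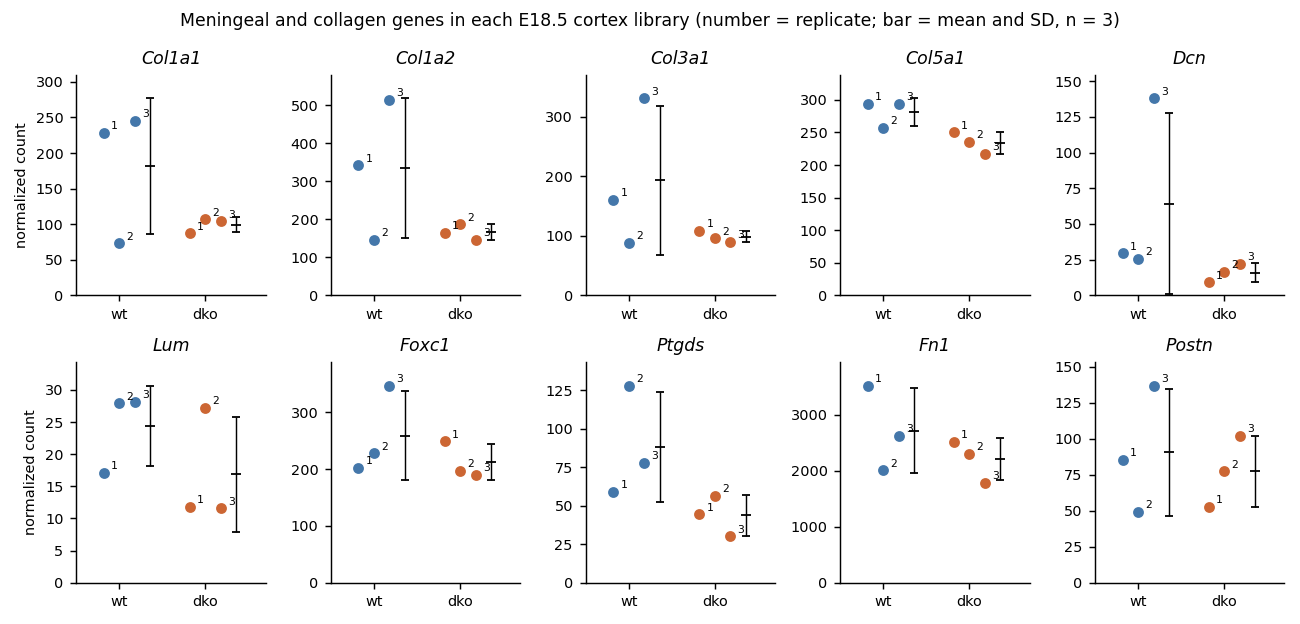
Normalized count (vertical axes, starting at 0) of each member gene in the 3 wt (blue) and 3 dKO (orange) libraries, numbered by replicate, with the mean and SD of each genotype (n = 3) as black bars. *Dcn*, *Ptgds* and *Col5a1* are the 3 genes whose genotypes do not overlap, and wt replicate 2 lies among or below the dKO libraries for *Col1a1*, *Col1a2* and *Col3a1*.

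The genes of type I collagen, the main collagen of meninges, skin and bone, differed more among wt libraries than between the genotypes. *Col1a1* (GSMG0005795, chr11:94936224-94953040, plus strand), which encodes its pro-alpha-1 chain, had 228, 73.0 and 245 normalized counts in wt replicates 1 to 3 and 87.1, 107 and 104 in dKO replicates 1 to 3. Wt replicate 2 was the lowest of the 6 libraries and the other two wt libraries were the highest, so that the genotypes overlapped. The means were 182 ± 95.0 in wt and 99.4 ± 10.7 in dKO (SD, n = 3), with an estimated log2 fold change of -0.69 (standard error, SE, 0.41, limma adjusted p = 0.536). *Col1a2* (GSMG0031435, chr6:4505618-4541543, plus strand), which encodes the pro-alpha-2 chain, had 342, 146 and 513 normalized counts in wt and 164, 187 and 146 in dKO replicates 1 to 3. The order was again wt replicate 3, wt replicate 1 and then the dKO libraries, with wt replicate 2 lowest and level with dKO replicate 3. *Col1a2* averaged 334 ± 184 in wt and 166 ± 20.6 in dKO (SD, n = 3), an estimated log2 fold change of -0.83 (SE 0.39, limma adjusted p = 0.463).

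The spread of these genes within wt was wider than counting error. *Col1a1* was read 240 times in wt replicate 1 and 68 times in wt replicate 2, and the exact Poisson 95% intervals of the normalized counts were 200 to 259 and 56.7 to 92.6, which cover counting error only and do not overlap. For *Col1a2*, the 585 reads of wt replicate 3 gave an interval of 472 to 556 and the 136 reads of wt replicate 2 an interval of 123 to 173. The coefficient of variation was 52.1% in wt and 10.8% in dKO for *Col1a1*, 55.0% and 12.4% for *Col1a2*, and 64.6% and 9.57% for *Col3a1*. The dKO libraries thus lay within a narrow band at the lower end of the wt range for the 3 genes, and with 3 libraries each the difference in spread was not tested.

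*Col3a1* (GSMG0000219, chr1:45311538-45349852, plus strand) encodes the chain of type III collagen, which is found with type I in distensible connective tissue. It had 160, 88.1 and 331 normalized counts in wt and 109, 96.2 and 90.5 in dKO replicates 1 to 3. Wt replicate 3 was the highest by a wide margin and wt replicate 2 the lowest, within counting error of dKO replicate 3 (exact Poisson 95% intervals 70.1 to 109 and 71.5 to 113). The means of 193 ± 125 and 98.5 ± 9.43 (SD, n = 3) corresponded to an estimated log2 fold change of -0.76 (SE 0.40, limma adjusted p = 0.493). *Col5a1* (GSMG0020843, chr2:27886425-28039509, plus strand), whose type V collagen is built into type I fibrils and limits their width, had 294, 257 and 294 normalized counts in wt and 250, 236 and 217 in dKO replicates 1 to 3. Each dKO library was below each wt library, but the nearest, dKO replicate 1 and wt replicate 2, were within counting error of each other (exact Poisson 95% intervals 221 to 281 and 225 to 291). *Col5a1* averaged 281 ± 21.4 in wt and 234 ± 16.4 in dKO (SD, n = 3), an estimated log2 fold change of -0.26 (SE 0.14, limma adjusted p = 0.503; exact two-sided permutation p = 0.1, the smallest that 3 against 3 allow).

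The type I chains also moved from library to library in similar amounts, and the type III chain followed *Col1a1* less closely. The ratio of *Col1a1* to *Col1a2* normalized counts was 0.667, 0.500 and 0.479 in wt and 0.530, 0.570 and 0.714 in dKO replicates 1 to 3, a 1.49-fold range over libraries in which *Col1a1* itself ranged 3.36-fold. Its log2 difference, dKO minus wt, was 0.15 (exact two-sided permutation p = 0.5, adjusted p = 0.75 over 3 ratios). The ratio of *Col3a1* to *Col1a1* was 0.700, 1.21 and 1.35 in wt and 1.25, 0.902 and 0.867 in dKO, a 1.92-fold range. Its log2 difference was -0.07 (exact two-sided permutation p = 0.9, adjusted p = 0.9). Neither ratio separated the genotypes.

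RefSeq promoters of GRCm38.p6 were matched for 6 of the 10 members. The 250 bases before the start are shown for *Col1a2* (chr6:4505368-4505617) and *Col3a1* (chr1:45311288-45311537), whose levels varied together, and for *Col5a1* (chr2:27886175-27886424), whose level varied little, all on the plus strand. Capitals mark 3 motifs on either strand, the CCAAT box, the TATA box as TATAAA, and the GC box as GGGCGG. *Col1a2* has CCAAT starting 109 bases before the start and GGGCGG at 205 and 188 bases before it, *Col3a1* has TATAAA at 117, and *Col5a1* has GGGCGG at 205, on the minus strand, and at 73. Of 32851 promoter windows of this length, 33.8% hold CCAAT, 12.4% TATAAA and 32.7% GGGCGG. These matches describe the letters only, and no motif was common to the pair that varied together.
Col1a2: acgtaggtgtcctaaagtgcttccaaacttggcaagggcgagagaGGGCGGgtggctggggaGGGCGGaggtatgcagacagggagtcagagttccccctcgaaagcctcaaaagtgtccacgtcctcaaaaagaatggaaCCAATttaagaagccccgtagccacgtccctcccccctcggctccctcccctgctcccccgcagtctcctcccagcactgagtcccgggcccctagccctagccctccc
Col3a1: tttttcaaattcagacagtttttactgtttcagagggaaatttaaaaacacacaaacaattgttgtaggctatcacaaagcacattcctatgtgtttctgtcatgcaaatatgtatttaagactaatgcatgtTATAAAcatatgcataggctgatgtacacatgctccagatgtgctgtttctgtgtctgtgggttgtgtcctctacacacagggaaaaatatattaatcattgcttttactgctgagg
Col5a1: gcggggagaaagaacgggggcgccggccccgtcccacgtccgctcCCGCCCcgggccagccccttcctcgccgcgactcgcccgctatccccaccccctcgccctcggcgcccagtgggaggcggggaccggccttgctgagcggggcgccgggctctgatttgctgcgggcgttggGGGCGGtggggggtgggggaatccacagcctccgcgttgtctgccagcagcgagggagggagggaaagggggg

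The small leucine-rich proteoglycans bind collagen fibrils and regulate their assembly, and *Dcn* had the largest difference between the genotypes among the members. *Dcn* (GSMG0003452, chr10:97479500-97518155, plus strand), which encodes decorin, had 29.5, 25.8 and 138 normalized counts in wt and 9.08, 16.7 and 22.0 in dKO replicates 1 to 3. Each dKO library was below each wt library, but the nearest of them, dKO replicate 3 and wt replicate 2, were within counting error of each other (exact Poisson 95% intervals 13.3 to 34.4 and 16.5 to 38.4), and wt replicate 3 stood far above the rest. The means were 64.3 ± 63.5 in wt and 15.9 ± 6.52 in dKO (SD, n = 3), with an estimated log2 fold change of -1.59 (SE 0.61, limma adjusted p = 0.393; exact two-sided permutation p = 0.1). Without wt replicate 3 the log2 fold change was -0.83 (limma adjusted p = 0.759). *Lum* (GSMG0003453, chr10:97565501-97572703, plus strand), which encodes lumican and lies next to *Dcn* on the chromosome, had 17.1, 27.9 and 28.1 normalized counts in wt and 11.8, 27.2 and 11.6 in dKO replicates 1 to 3. Between 10 and 32 reads stood behind each *Lum* value, and dKO replicate 2 was level with the highest wt libraries. *Lum* averaged 24.4 ± 6.28 in wt and 16.9 ± 8.94 in dKO (SD, n = 3), an estimated log2 fold change of -0.58 (SE 0.46, limma adjusted p = 0.642). The ratio of *Dcn* to *Lum* ran from 0.615 in dKO replicate 2 to 4.91 in wt replicate 3, a 7.97-fold range, and its log2 difference of -1.04 was within the spread of the libraries (exact two-sided permutation p = 0.3, adjusted p = 0.75).

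The glycoproteins of the matrix were the member with the highest counts, *Fn1*, and the member with the fold change nearest to 0, *Postn*. *Fn1* (GSMG0001727, chr1:71585473-71653234, minus strand) encodes fibronectin, which links cells to the matrix and is made by endothelial cells and fibroblasts alike. It had 3518, 2006 and 2617 normalized counts in wt and 2516, 2303 and 1785 in dKO replicates 1 to 3. Wt replicate 1 was the highest and dKO replicate 3 the lowest, and wt replicate 2 lay among the dKO libraries. *Fn1* averaged 2714 ± 760 in wt and 2201 ± 376 in dKO (SD, n = 3; estimated log2 fold change -0.28, SE 0.20, limma adjusted p = 0.604), and -0.07 without wt replicate 1. The antisense gene *Apol7d* overlaps it, and since the strand setting of the counting is not given in the sources used here, their reads could not be told apart where they overlap; *Apol7d* has a mean of 9.23 normalized counts. *Postn* (GSMG0024308, chr3:54361107-54391041, plus strand) encodes periostin, which binds collagen in growing and repairing connective tissue. It had 85.6, 49.4 and 137 normalized counts in wt and 52.6, 77.4 and 102 in dKO replicates 1 to 3, with libraries of both genotypes spread over the whole range. Its means of 90.6 ± 43.9 and 77.4 ± 24.7 (SD, n = 3) gave an estimated log2 fold change of -0.16 (SE 0.37, limma adjusted p = 0.891), and the sign turned without wt replicate 3 (0.20), without dKO replicate 1 (0.09) and without both libraries numbered 1 (0.11).

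*Foxc1* (GSMG0009607, chr13:31806646-31810635, plus strand) encodes a forkhead transcription factor of meningeal fibroblasts, which pericytes also use. It had 202, 228 and 347 normalized counts in wt and 249, 197 and 190 in dKO replicates 1 to 3. Wt replicate 3 was highest and dKO replicate 1 second, above the other wt libraries. *Foxc1* averaged 259 ± 77.6 in wt and 212 ± 32.1 in dKO (SD, n = 3; estimated log2 fold change -0.26, SE 0.21, limma adjusted p = 0.65), and without wt replicate 3 the log2 fold change was -0.03. *Ptgds* (GSMG0022531, chr2:25466712-25469750, minus strand) encodes the lipocalin-type prostaglandin D synthase, a major secreted protein of the leptomeninges and the cerebrospinal fluid. It had 59.0, 128 and 78.0 normalized counts in wt and 44.5, 56.5 and 30.2 in dKO replicates 1 to 3. Each dKO library was below each wt library, but the nearest, dKO replicate 2 and wt replicate 1, were within counting error of each other (exact Poisson 95% intervals 42.4 to 73.7 and 45.2 to 75.6). Unlike the other members, *Ptgds* was highest in wt replicate 2. The means of 88.3 ± 35.6 and 43.7 ± 13.2 (SD, n = 3), 2.02-fold apart, gave an estimated log2 fold change of -0.97 (SE 0.34, limma adjusted p = 0.368; exact two-sided permutation p = 0.1). Without wt replicate 2 it was -0.67 (limma adjusted p = 0.418).

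**Figure D2:**
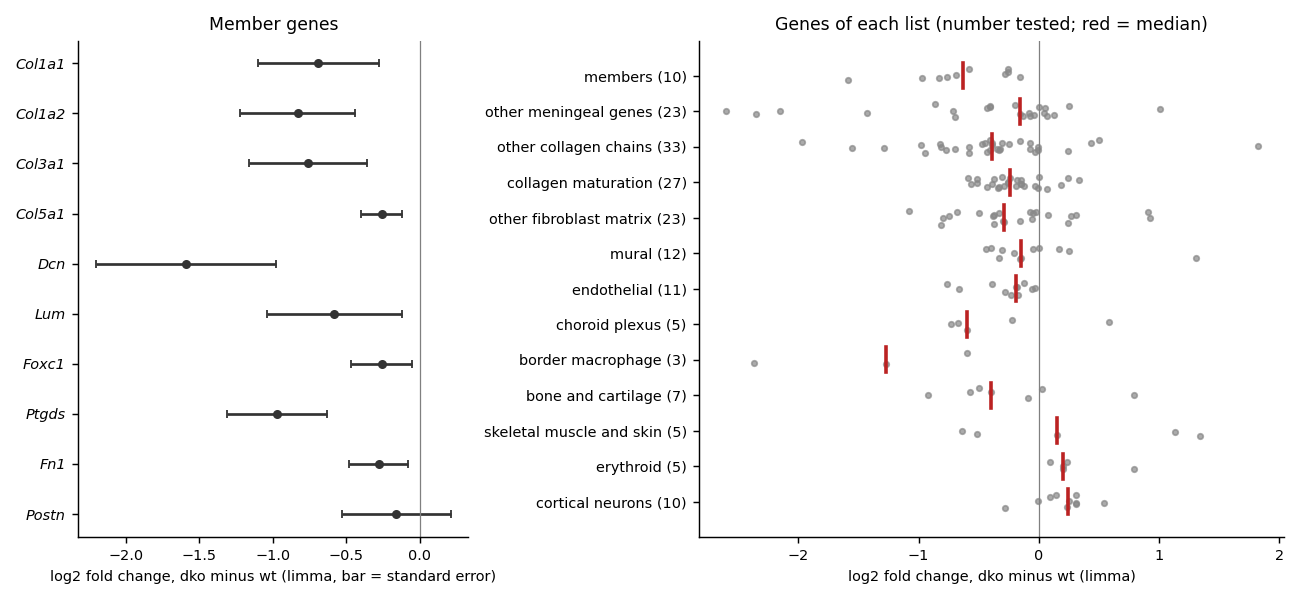
Left, log2 fold change of each member gene, dKO minus wt on the log2(normalized count + 1) scale, with its standard error (SE) from limma (n = 3 each). Right, log2 fold change of the single tested genes of each list (grey points) and their median (red bar): the members' median is -0.63, and the medians of the other lists run from -1.27 for the 3 tested genes of border macrophages to 0.24 for cortical neurons.

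Per length of transcript, *Fn1* was far more abundant than the other members. Its mean was 290 normalized counts per kb of exon, with libraries between 210 and 415. It was followed by *Ptgds* with 70.3 and *Col1a2* with 46.7 normalized counts per kb, then by *Foxc1* (40.3), *Col5a1* (30.7), *Col3a1* (26.2), *Postn* (25.5), *Col1a1* (23.7), *Dcn* (20.7) and *Lum* (8.42), all on the same scale. For *Foxc1*, the annotated exon length of 5.84 kb is longer than its whole counted feature (chr13:31806646-31810635). Its value per kb is therefore understated, and its place below *Col1a2* in this order is not settled. After *Fn1*, whose lowest library lay above the highest of *Ptgds*, 136 per kb, the ranges of all neighbours in this order overlapped over the 6 libraries. *Col1a1* stood below *Col1a2* per kb, with a mean ratio of 0.514.

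Library by library, wt replicate 3 was the highest of the 6 for 7 of 10 members, where 19.3% of all features are highest in it. Wt replicate 1 was highest for *Col5a1* and *Fn1* (16.7% of all features), and wt replicate 2 for *Ptgds* (14.1%). No dKO library was highest for a member, where dKO replicates 1 to 3 are highest for 20.0%, 12.0% and 17.8% of all features. The lowest library was dKO replicate 3 for 5 members, wt replicate 2 for 4 and dKO replicate 1 for *Dcn*. The median deviation of the members from their mean over libraries, in log2(normalized count + 1), was 0.16, -0.16 and 0.69 in wt and -0.42, -0.17 and -0.35 in dKO replicates 1 to 3, so that wt replicate 2 was level with dKO replicate 2. Summed over the members, the normalized counts were 4935, 3029 and 4727 in wt and 3492, 3303 and 2699 in dKO replicates 1 to 3, of which *Fn1* is the larger part.

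**Figure D3:**
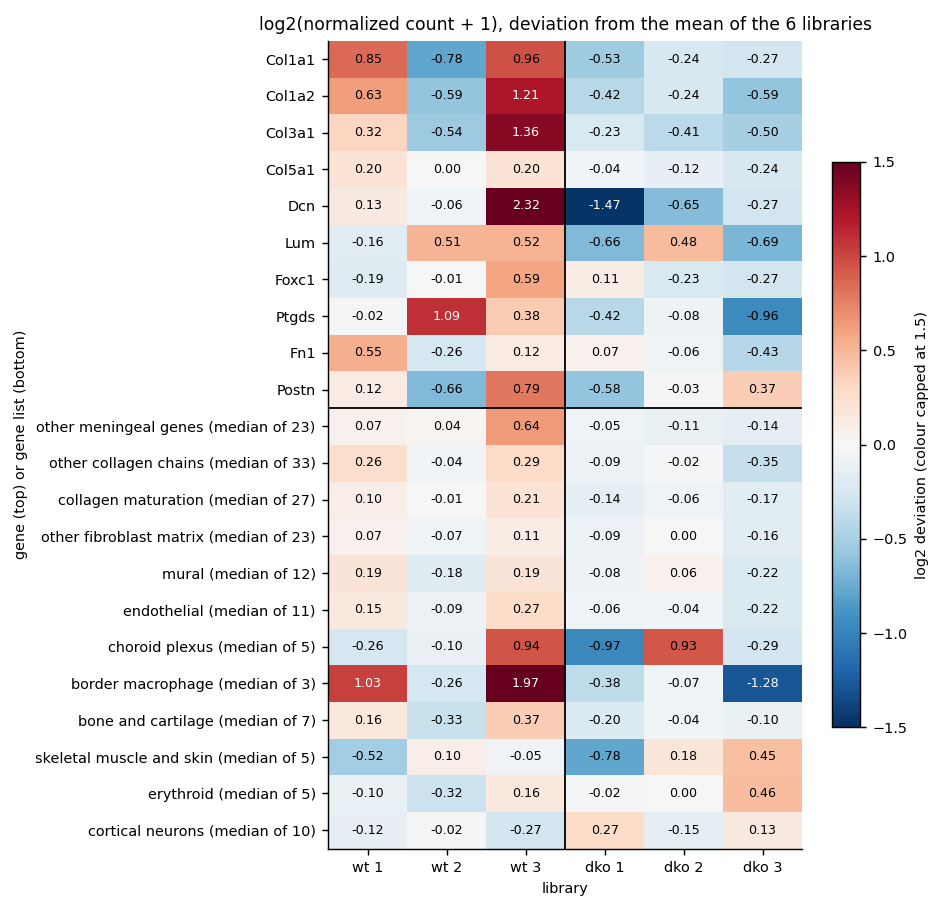
Deviation of log2(normalized count + 1) from the mean of the 6 libraries, for each member gene (upper rows) and as the median over the tested genes of each companion list (lower rows), in the 3 wt and 3 dKO libraries. Wt replicate 3 is above the mean for each member, and the same column is high for the other meningeal genes (0.64) and the border macrophages (1.97), while wt replicate 2 is at -0.78 for *Col1a1* and 1.09 for *Ptgds*.

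The genotypes did not overlap for *Col5a1*, *Dcn* and *Ptgds*, 3 of 10 members, all lower in dKO, where 8.48% of all features were lower and 7.89% higher without overlap. Leaving out wt replicate 2 raised this count to 7 of 10 (the collagen chains, *Dcn*, *Ptgds* and *Fn1*), against 17.4% of all features in the same libraries. Leaving out wt replicate 1 or 3 gave 4 or 3 (13.6% and 11.7% of all features), leaving out dKO replicates 1 to 3 gave 4, 4 and 3 (14.0%, 15.2% and 11.6%), and leaving out both libraries numbered 1 gave 5 (*Col5a1*, *Dcn*, *Lum*, *Foxc1* and *Ptgds*), against 19.9% of all features. Without wt replicate 2, *Col1a2* had a log2 fold change of -1.34 and came nearest to the threshold, with an limma adjusted p = 0.0517 (range over its alternatives up to 0.803). *Col1a1* reached -1.25 and *Col3a1* -1.22 in the same libraries (limma adjusted p = 0.0564 and 0.138). Without wt replicate 3, the log2 fold changes were -0.38 for *Col1a1*, -0.44 for *Col1a2* and -0.27 for *Col3a1*, and the members' median was -0.33, the nearest to 0 of any alternative. *Col5a1* moved least, between -0.33 and -0.21 over all alternatives.

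**Figure D4:**
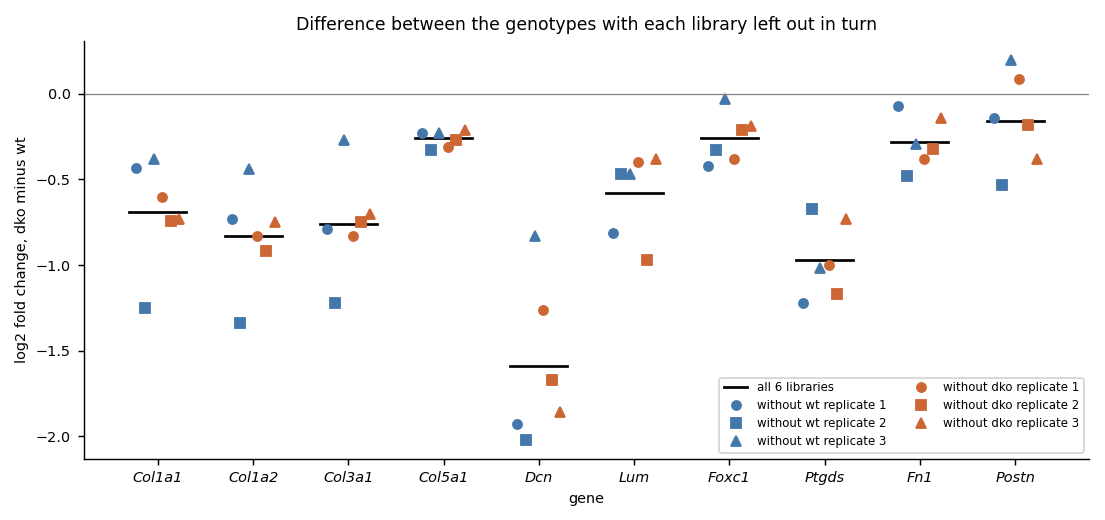
Log2 fold change of each member, dKO minus wt (vertical axis), with all 6 libraries (black bar) and after leaving out single libraries (blue for wt, orange for dKO; circle, square and triangle for replicates 1, 2 and 3). For *Col1a1*, *Col1a2* and *Col3a1* the values spread widely, from -1.25, -1.34 and -1.22 without wt replicate 2 to -0.38, -0.44 and -0.27 without wt replicate 3, while *Col5a1* stays between -0.33 and -0.21.

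Other genes of meningeal cells had a median fold change nearer to 0 than the members. Of 27 listed genes in the table, 23 were tested and none was called at an adjusted *P*-value under 0.05 from limma; 5 were lower and 0 higher in dKO at an unadjusted *P*-value under 0.05 (6.58% and 4.92% of all features), and 3 were lower without overlap (8.48% of all features). The median log2 fold change was -0.16, with 16 of 23 below 0 (49.4% of all features). Their median deviation in wt replicate 3 was 0.64, near the 0.69 of the members, and without that library 9 of 21 tested genes were below 0, with a median of 0.06. *Slc6a13*, a transporter of pial cells, had 20.9, 12.9 and 78.9 normalized counts in wt and 1.82, 10.5 and 4.64 in dKO replicates 1 to 3, without overlap (estimated log2 fold change -2.35, SE 0.75, limma adjusted p = 0.34). *Pdgfra*, a receptor of fibroblasts and of oligodendrocyte precursors, averaged 603 ± 243 in wt and 323 ± 84.6 in dKO (SD, n = 3; estimated log2 fold change -0.86, limma adjusted p = 0.37). *Cxcl12* had 1190 ± 366 normalized counts in wt and 862 ± 105 in dKO (SD, n = 3; estimated log2 fold change -0.43, limma adjusted p = 0.449). The abundant *Igfbp2* and *Zic1* gave 0.04 and 0.13, and other brain cells express both.

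Chains of the other collagens mostly had lower means in dKO cortex. Of 33 tested chains none was called by limma, 11 were lower and 1 higher at an unadjusted *P*-value under 0.05 (6.58% and 4.92% of all features). Without overlap, 7 were lower and 0 higher (8.48% and 7.89% of all features), and 29 had a fold change below 0 (49.4% of all features), with a median of -0.39. The abundant chains of the vascular basement membrane, *Col4a1* and *Col4a2*, had log2 fold changes of -0.33 and -0.41 (limma adjusted p = 0.396 and 0.446). *Col11a1*, a fibrillar chain related to *Col5a1*, had 123, 115 and 127 normalized counts in wt and 95.3, 65.9 and 66.1 in dKO replicates 1 to 3, without overlap (estimated log2 fold change -0.70, limma adjusted p = 0.343). *Col26a1* averaged 179 ± 17.8 in wt and 104 ± 34.0 in dKO (SD, n = 3), again without overlap (estimated log2 fold change -0.82, limma adjusted p = 0.319). *Col9a3* did not follow, with means of 506 in both genotypes.

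Among 27 tested genes that modify, fold, cross-link or cleave collagen, 9 were lower without overlap and 0 higher (8.48% and 7.89% of all features). At an unadjusted *P*-value under 0.05, 5 were lower and 0 higher (6.58% and 4.92% of all features). None was called by limma, and the median log2 fold change was -0.24, with 22 of 27 below 0 (49.4% of all features), and -0.14 without wt replicate 3. *P3h3*, a collagen prolyl hydroxylase family gene, averaged 259 ± 22.6 in wt and 172 ± 21.9 in dKO (SD, n = 3; estimated log2 fold change -0.59, limma adjusted p = 0.291). *Adamts2*, which cleaves procollagen, had a log2 fold change of -0.51 (limma adjusted p = 0.36), and *Serpinh1*, the collagen chaperone, had -0.19 without overlap (limma adjusted p = 0.43). *Ppib* and *Sparc*, which most cell types express, had log2 fold changes of 0.18 and -0.18.

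Of the remaining matrix genes of fibroblasts, 17 of 23 tested had a log2 fold change below 0 (49.4% of all features), with a median of -0.29 (-0.25 to -0.13 without single libraries). At an unadjusted *P*-value under 0.05, 3 were lower and 3 higher (6.58% and 4.92% of all features), and none was called by limma. The 3 lower ones, named after their values were seen, were *Fbln5* with an estimated log2 fold change of -1.08, *Tgfbi* with -0.75, both without overlap, and *Thbs2* with -0.68 (limma adjusted p = 0.369, 0.394 and 0.43). *Mfap4*, a microfibril-associated gene, had 207, 369 and 261 normalized counts in wt and 528, 457 and 563 in dKO replicates 1 to 3, each dKO library above each wt library (estimated log2 fold change 0.92, limma adjusted p = 0.187). *Fbln1*, which encodes fibulin-1, was also higher without overlap, and *Mfap2* was higher in the mean, with log2 fold changes of 0.27 and 0.24 (limma adjusted p = 0.357 and 0.385). Over this list, 3 tested genes were lower and 2 higher without overlap (8.48% and 7.89% of all features).

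Markers of other cell types that could come with the tissue were measured in the same way. Of 12 choroid plexus genes, 5 passed the filter, and the 12 summed to between 116 and 274 normalized counts in wt and between 94.4 and 211 in dKO. The most abundant on average was *Sostdc1*, a secreted inhibitor of BMP and Wnt signals, with 107, 66.6 and 103 in wt and 50.8, 101 and 34.8 in dKO replicates 1 to 3, while *Ttr*, a defining marker, had between 1.90 and 14.0 in any library. The median log2 fold change of the 5 tested genes was -0.60, with 4 below 0 (49.4% of all features), and it ran from -1.01 to -0.10 without single libraries. Border macrophages, which live in the meninges, were highest in wt replicate 3 too: 7 markers summed to 205, 66.6 and 331 normalized counts in wt and 79.9, 128 and 56.8 in dKO replicates 1 to 3, and *Mrc1* had 122, 49.4 and 132 in wt and 45.4, 56.5 and 20.9 in dKO (estimated log2 fold change -1.27, limma adjusted p = 0.368). Their wt replicates 1 and 3 were high, as for *Col1a1*. Wt replicate 2 was among the dKO libraries for this sum and for *Mrc1*, whereas it was below all of them for *Col1a1*. It was also below all of them for the macrophage marker *F13a1*, with 8.59 against 29.0, 39.7 and 11.6 in dKO replicates 1 to 3. Over the 3 of 7 macrophage markers that were tested, all below 0 (49.4% of all features), the median log2 fold change was -1.27, but it was -0.60 over all 7 at a mean of at least 1, with 5 below 0, and -0.39 over 2 without wt replicate 3.

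Markers of vessel cells mostly had lower means in dKO cortex. All 11 tested endothelial genes were below 0 (49.4% of all features), with a median log2 fold change of -0.19 (-0.27 to -0.12 without single libraries), and 9 of 11 were below 0 without wt replicate 3. At an unadjusted *P*-value under 0.05 from limma, 2 were lower and 0 higher (6.58% and 4.92% of all features). Without overlap, 2 were lower and 0 higher (8.48% and 7.89% of all features). Of 12 mural genes 8 were below 0 (49.4% of all features), with a median of -0.15 (-0.24 to -0.08). Among them, 1 was lower and 1 higher at an unadjusted *P*-value under 0.05 from limma, and 2 were lower and 0 higher without overlap. *Flt1* and *Kdr*, the receptors for vascular endothelial growth factor, had log2 fold changes of -0.76 and -0.66 (limma adjusted p = 0.305 and 0.363), and the abundant *Cldn5* of tight junctions had -0.03. *Rgs5* of pericytes had -0.31 (limma adjusted p = 0.355). The mural gene *Myh11* went the other way, with 1.31 (limma adjusted p = 0.386) and means of 17.3 in wt and 45.1 in dKO. *Acta2* and *Tagln* were also above 0, with 0.25 and 0.17 (limma adjusted p = 0.894 and 0.924). Sums over the lists overlapped between the genotypes for endothelial cells (7195 to 9650 in wt, 7127 to 8118 in dKO) and mural cells (9145 to 10396 in wt, 7337 to 9239 in dKO). Bone and cartilage markers summed to between 482 and 836 in wt and between 493 and 516 in dKO, with the osteoblast genes *Bglap* and *Sp7* below the filter and *Bglap2* listed at 0 in all libraries, and the median log2 fold change of 7 tested genes was -0.40 (-0.30 to -0.10 without single libraries). Skeletal muscle and skin markers summed to between 292 and 332 in wt and between 221 and 442 in dKO, with a median log2 fold change of 0.15 over 5 tested genes. The sign of this median turned under other settings, to -0.63 without dKO replicate 3, -0.17 without dKO replicate 2, -0.14 without wt replicate 2, -0.01 without dKO replicate 1 and -0.18 over 10 genes at a mean of at least 1. Of these 5 tested genes 2 were below 0 (49.4% of all features). *Krt5* and *Krt14* had 1.34 and 1.13, *Krt10* 0.15 and *Myh3* -0.64 (limma adjusted p = 0.488, 0.575, 0.82 and 0.512). *Krt14* had 11.4, 7.52 and 16.7 normalized counts in wt and 6.35, 38.7 and 66.1 in dKO replicates 1 to 3. Erythroid markers had a median of 0.20 over 5 genes, and 0.02 without dKO replicate 3 and 0.07 without wt replicate 2. The part of these cell types in the members' differences was not tested.

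Cortical neuron markers mostly had higher means in dKO cortex. Their sum was 108551, 132137 and 100030 normalized counts in wt and 144350, 111449 and 145053 in dKO replicates 1 to 3, with the lowest sum in wt replicate 3, where the members were highest. *Neurod6* was the largest part of this sum, with means of 52388 in wt and 61321 in dKO. None of 10 was called by limma, 4 were higher at an unadjusted *P*-value under 0.05, where 4.92% of all features were, and the median log2 fold change was 0.24 (0.15 to 0.36 without single libraries). Of the 10 genes, 8 were above 0 and 2 below, where 49.4% of all features were below 0. The 2 below were *Slc17a7* with -0.28 and *Cux2* with -0.01 (limma adjusted p = 0.579 and 0.978). DESeq2 called 4 of 164 tested genes of the companion lists, *Emx1* and *Mfap4* as higher and *Flt1* and *Pdgfra* as lower. Over all 18970 features it called 202. *Emx1*, a transcription factor of the dorsal telencephalon, had 1127, 1329 and 1125 normalized counts in wt and 1706, 1734 and 1740 in dKO, without overlap (estimated log2 fold change 0.54, SE 0.09, limma adjusted p = 0.09). Normalized counts are relative to the other genes of a library, and no absolute amount was measured.

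The genes whose profile over the 6 libraries was most like the members' median profile were sought among 12725 features with a symbol and a mean of at least 50. *B3galt5*, a glycosyltransferase gene, was nearest, with a root mean square distance of 0.053 in log2, followed by *Cdkn1a*, which encodes the cell cycle inhibitor p21, at 0.070, and *Tmem266* at 0.084. The next were *Jdp2*, *Adamts12*, *Epb41l4b*, *Lrrc48*, *Smim17*, *Gm5468* and *Dmrtb1*, at 0.098 to 0.121. None of these 10 genes is in a companion list, and the median distance over all candidates was 0.415. The members themselves lay between 0.268 for *Col5a1* and 0.816 for *Dcn*, and these 10 genes were the closest of many.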

How the data were processed

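PolyA+ RNA of cortex was sequenced in a 150 bp paired-end format (TruSeq Stranded mRNA libraries). GenoSplice analysed the reads, and the authors deposited a signal per gene, a read count divided by a DESeq2 size factor of its library. The submitters' processing notes name STAR 2.7.5a, FastQC, Picard, SAMtools, DESeq2 and mm10. The counting program and its strand setting are not given in the sources used here. Dividing by the smallest value above 0 in a library gave whole reads for 100.0% of such values (tolerance 0.01 reads).

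Genotypes were compared with limma 3.58.1 in R 4.3.3, with a mean-variance trend and robust estimation. Values were log2(normalized count + 1), features needed a mean of 10 or more, *P*-values were adjusted over all of them by the Benjamini-Hochberg method (threshold 0.05). Changes of low genes are understated by the added 1. Single values were compared by exact permutation tests. Ranges of reads are exact Poisson 95% intervals. Exon lengths and coding sequences came from GENCODE release M21, promoters from RefSeq. The alternatives comprised a pseudocount of 0.1 or 10, a minimum mean of 1, of 50 or none, quantile normalization, TMM factors, limma without both options, edgeR 4.0.16 and DESeq2 1.42.0 on the reads, a replicate block, and fits without single libraries or without both numbered 1. limma was tested on simulated counts of 18696 features, in which it called 99 of 100 changed 4-fold and 92 of 100 changed 2-fold, with 12 false calls. The changed features all had a mean of at least 50, and the means of *Dcn* and *Lum* are 40.1 and 20.6. The simulation used dispersions estimated by edgeR and held no length trend and no outlying library. Its rates therefore do not give the power of the test for the members.

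The members and lists were chosen with earlier results of these data known. Beside the members, the text names from each list genes called by limma, the 3 most abundant and the 2 with the smallest unadjusted *P*-value, of which not all are printed, the 10 nearest profiles, and defining markers near 0. Some genes that did not follow their list, such as *Col2a1*, *Col5a2*, *Slc17a7* and *Cux2*, were named after their values were seen.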

Additional observations from a re-analysis of the deposited data

How the results depend on the processing

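Of 178 alternative values of the members' log2 fold changes, 175 kept their direction and their side of the threshold. The 3 others were those of *Postn*, with 0.20 without wt replicate 3, 0.09 without dKO replicate 1 and 0.11 with both libraries numbered 1 left out, against -0.16 (-0.53 to 0.20 without single libraries), and the cause was not tested. No alternative called a member at an adjusted *P*-value under 0.05, and *Dcn* and *Lum* were not tested at a mean of at least 50. The number of members below every wt library in every dKO library, 3, was 3 to 7 without single libraries and 5 with both libraries numbered 1 left out. Over all features, 19 were called, 7 by limma without the trend and robust options, 202 by DESeq2 (60 higher and 142 lower), 9 with the replicate block, 5 with both libraries numbered 1 left out and 7 to 46 without single libraries. Of the 164 companion genes tested, 0 were called by limma and 4 by DESeq2 (*Emx1*, *Flt1*, *Mfap4* and *Pdgfra*). Without single libraries, 0 to 2 companion genes were called (*Emx1* and *Mfap4* without wt replicate 2). Over all features tested, the deviations of libraries of the same number correlated at 0.0980, -0.2281 and -0.0790, so that the numbers were not taken as pairs. Both libraries numbered 1 nevertheless shared a trend with exon length (0.28 in wt and 0.33 in dKO). The replicate block changed no call of a member. The 3 ratios between members moved by less than the spread between replicates. Depth limits *Dcn* and *Lum*, with as few as 10 reads in a library.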

Other observations

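Some genes of meningeal barrier cells, chosen after their values were seen, were read in wt replicate 3 and hardly elsewhere. *Aldh1a2*, which makes retinoic acid in the meninges, had 3.80, 10.7 and 77.1 normalized counts in wt and 5.45, 2.09 and 0 in dKO replicates 1 to 3 (estimated log2 fold change -2.60, limma adjusted p = 0.402). *Slc22a6*, an organic anion transporter, had 7.61, 4.30 and 70.1 in wt and 10.9, 2.09 and 0 in dKO (estimated log2 fold change -2.15, limma adjusted p = 0.497). In both genes wt replicate 3 stood above the other 5 libraries, which held at most 10.9 normalized counts each, and the genotypes overlapped. *Clic6*, a choroid plexus marker, had 56.1 normalized counts in the same library, against 20.9 in dKO replicate 2 and at most 8.59 in the others.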
